A study of Rattus norvegicus with 24 samples.

Results

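Arthritic rats treated for 34 days with mechanical stimulation (MS) were compared with arthritic rats treated for the same time with methotrexate (MTX). The members are the 4 arrays whose sample titles name these arms and this time, 2 for MS and 2 for MTX, out of 24 one-colour Agilent rat miRNA arrays in all. Each array reads miRNA in peripheral blood mononuclear cells (PBMC) of female Wistar rats, which were killed when blood was taken, so that no rat was sampled more than once. Whether an array holds one rat or a pool is not given in the sources used here. The p-values measure only the spread between arrays of a group, pooled over all 24 arrays. The age of the rats is not given in the labels.

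In both arms the rats had collagen-induced arthritis (CIA), raised with bovine type II collagen in adjuvant, so the groups share the disease, its immunisation and the ether used when blood was drawn. In the MS rats thin needles were placed under the skin of the lower back and hind leg and twirled, and the labels call this arm AP. The MTX rats received the drug by weekly injection into the peritoneum, so the arms differ in the agent and also in the handling. The model is an immunised rat and not the spontaneous human disease, and a PBMC sample is a mixture of cell types. The placebo arm (PLA, saline injected into CIA rats in the same way, 2 arrays) was read on the same slide at the same time and is given for reference. The MS and MTX arms were also profiled 1 hour into treatment, on 4 other arrays, from other rats and on another slide.

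A miRNA is a short RNA that guides Argonaute proteins to messenger RNAs, chiefly through pairing of its seed, bases 2 to 8, and lowers their translation or stability. miRNAs encoded close together are often cut from one primary transcript, and PBMC miRNAs are known to differ sharply between lymphocytes, monocytes, granulocytes and red cells carried over. Methotrexate is a folate antagonist and the reference drug for rheumatoid arthritis, while needle rotation is known to deform connective tissue.

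Mature sequences are shown for the miRNAs on which the comparison turns, from RefSeq on rat build GRCr8, written 5′ to 3′ with the seed in capitals. The array uses older names, and arms were matched by name, so that miR-20a of the array is miR-20a-5p of RefSeq. Of the 210 miRNAs tested, 190 had an entry under their name. The first set holds miRNAs with one shared seed from 3 clusters, of which those on chromosomes 15 and X were higher in MS and those on chromosome 12 were nearly level.
miR-17-5p: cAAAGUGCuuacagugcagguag
miR-20a: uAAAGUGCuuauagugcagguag
miR-20b-5p: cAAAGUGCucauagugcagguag
miR-106b: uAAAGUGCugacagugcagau
miR-93: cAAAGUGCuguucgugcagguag
miR-17-5p lies at chr15:98587861-98587883 on the plus strand, and the same mature sequence is also listed at a second locus, on chromosome X. miR-20a lies at chr15:98588318-98588340 on the plus strand and miR-20b-5p at chrX:137343239-137343261 on the minus strand. miR-106b at chr12:22157103-22157123 and miR-93 at chr12:22156894-22156916, both on the minus strand, lie within the protein-coding gene Mcm7. miR-17-5p, miR-20a and miR-20b-5p differ from each other at 2 positions in each pair.

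The second set comes from 2 related regions, in which miRNAs of one family differed in sign (miR-99b and miR-99a, miR-125a-5p and miR-125b-5p) or not (let-7e and let-7c). It holds a pair with one seed (miR-125a-5p and miR-125b-5p) and a pair that is antisense to each other (miR-125b-5p and miR-3588).
miR-99b: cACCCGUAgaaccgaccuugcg
let-7e: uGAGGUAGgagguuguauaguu
miR-125a-5p: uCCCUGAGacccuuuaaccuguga
let-7c: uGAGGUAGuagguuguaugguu
miR-125b-5p: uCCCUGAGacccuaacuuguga
miR-3588: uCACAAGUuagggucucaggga
The first 3 lie on the plus strand of chromosome 1 inside the span of the protein-coding gene Spaca6, at chr1:67350070-67350091 (miR-99b), chr1:67350243-67350264 (let-7e) and chr1:67350689-67350712 (miR-125a-5p). let-7c has a locus at chr11:29688127-29688148 and another on chromosome 7. miR-125b-5p and miR-3588 occupy the same 22 bases, chr11:29732588-29732609, miR-125b-5p on the plus strand and miR-3588 on the minus strand, so that one is the exact reverse complement of the other. Both lie inside the span of the long non-coding RNA LOC103693508. The gene table holds no strand, so overlap with a gene is given without its orientation.

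The third set holds the miRNAs past the 2-fold threshold with the highest levels (miR-210 and miR-338), the higher miRNA with the smallest p among those measured on all 4 arrays (miR-130b), the brightest miRNA (miR-21), one with no measurable difference (miR-26b) and the inflammation-linked miR-146a, which was lower in MS.
miR-210: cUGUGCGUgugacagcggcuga
miR-338: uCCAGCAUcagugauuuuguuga
miR-130b: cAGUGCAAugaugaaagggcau
miR-21: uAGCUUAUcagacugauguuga
miR-26b: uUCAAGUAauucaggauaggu
miR-146a: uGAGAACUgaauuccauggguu
miR-210 lies at chr1:205755946-205755967 on the minus strand, and miR-338 at chr10:105796345-105796367 on the minus strand inside the span of Aatk. miR-130b lies at chr11:97384430-97384451 on the plus strand, miR-21 at chr10:71902653-71902674 on the minus strand, miR-26b at chr9:83425723-83425743 on the plus strand inside the span of Ctdsp1, and miR-146a at chr10:28350053-28350074 on the minus strand.

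All levels below are log2 of the total intensity of a miRNA after scaling of each array, with a floor at 2.53, and differences are MS minus MTX on that log2 scale, so that 1 is 2-fold. Over the 24 arrays, between 145 and 207 of 677 miRNAs were detected, and their summed intensity lay between 137544 and 519917. This sum was 519917 and 305171 in MS, 303079 and 194596 in MTX, and 191876 and 181337 in PLA (replicates 1 and 2), and MS replicate 1 was the brightest array of the series. On the slide, the MS arrays lay on one side and the MTX and PLA arrays on the other, so that place on the slide and arm cannot be told apart. The number of arrays limits the precision. For a single miRNA 2 arrays against 2 cannot reach 0.05 in an exact permutation test, and the test given is limma across all miRNAs.

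The arrays of both arms were first compared as wholes over the 132 miRNAs detected on all 24 arrays. The nearest pair of arrays crossed the arms. MS replicate 2 and MTX replicate 1 had a median absolute difference of 0.10, against 0.48 between the 2 MS replicates and 0.43 between the 2 MTX replicates. Among all 276 pairs of arrays only the 2 healthy samples taken before therapy lay nearer to each other (0.08). Of the MS and MTX arrays at 34 days, MS replicate 1 and MTX replicate 2 were the farthest apart, at 0.95. Most miRNAs followed the same order of arrays. For 68 of the 132, MS replicate 1 had the highest and MTX replicate 2 the lowest of the 4 levels, for 36 it was the reverse, and 28 had another order. Whether samples had been exchanged was not tested, and each difference between MS and MTX rests on the labels as given. The summed intensities of the 4 arrays fall in this order too, and the part of intensity in the differences was not tested.

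**Figure D1:**
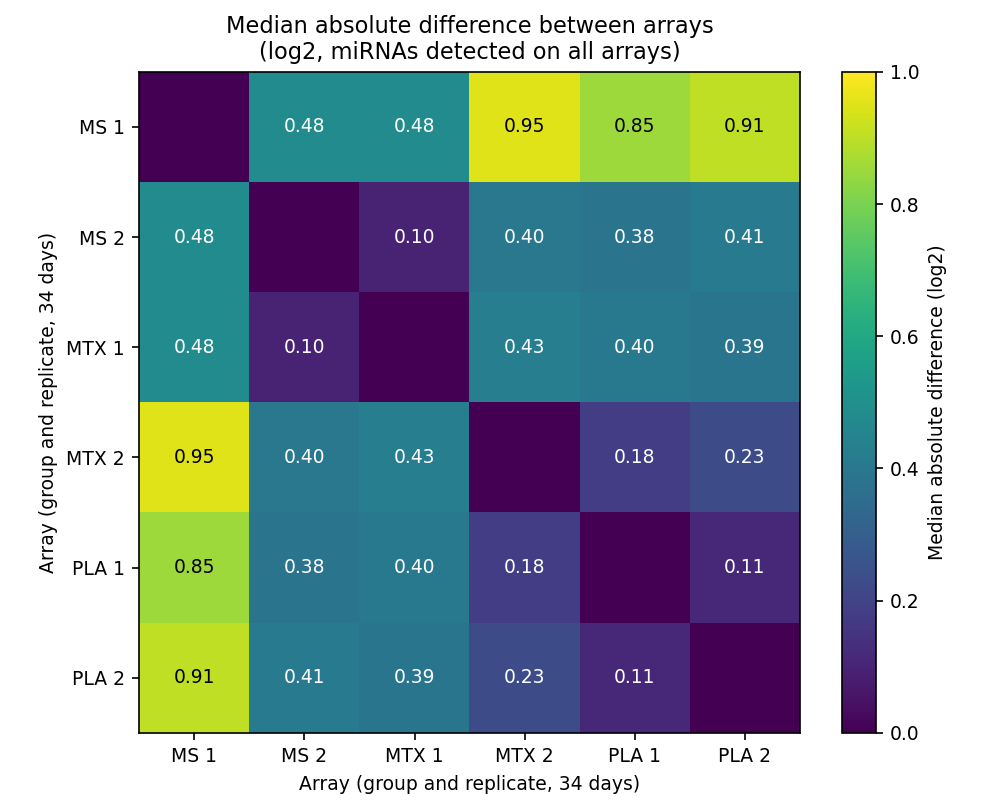
Median absolute difference in level (log2, colour and printed value) between each pair of the 6 arrays of MS, MTX and PLA at 34 days, over 132 miRNAs detected on all arrays. MS replicate 2 and MTX replicate 1 differ by 0.10, while the replicates of MS differ by 0.48 and those of MTX by 0.43.

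No miRNA separated the therapies at an adjusted p under 0.05 (0 of 210, 0% of those tested), and the smallest adjusted p was 0.259. At an unadjusted p under 0.05 there were 37 (17.6%), of which 34 were higher in MS (16.2%) and 3 lower (1.43%). That split of 34 to 3 became 10 to 3 with the percentile taken over all miRNAs, 7 to 5 with quantile normalisation and 24 to 14 with the mean spot signal. The arms did not overlap for 68 miRNAs (32.4%), with both MS arrays above both MTX arrays for 50 (23.8%) and below them for 18 (8.57%). By sign alone 122 of the 210 were higher in MS (58.1%), and the median difference over all tested was 0.12. The median standard error (SE) was 0.34 and the median 95% confidence interval reached 0.74 to each side.

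The count of calls rested on which MS array was used. Without MS replicate 2 there were 9 calls, without MS replicate 1 there were 0 and also 0 at an unadjusted p under 0.05, and without either MTX array there were 0. With 1 array left in an arm, its spread is taken from the other groups, so the 9 calls set MS replicate 1 alone against MTX. The 9, named because of their small number, were miR-338, miR-652, miR-30d, miR-872*, miR-542-5p, miR-322* and miR-181c* (higher) and miR-1949 and miR-150* (lower). For miR-872*, miR-542-5p, miR-322* and miR-181c* the MTX levels were at 2.98 or less, near the floor. For miR-150* MS replicate 1 itself stood at the floor of 2.53.

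Only 4 miRNAs (1.9%) met the criterion of the study's methods (more than 2-fold, p under 0.05 before adjustment) with detection on all 4 arrays. miR-210, known as a target of hypoxia-inducible factor, stood at 9.25 and 8.75 in MS and at 8.39 and 7.59 in MTX, with PLA at 7.59 and 7.89. The groups did not overlap, and the difference was 1.01 ± 0.38 (SE), 2.01-fold, with a limma adjusted p of 0.259. miR-338, encoded in the kinase gene Aatk, stood at 8.57 and 6.99 in MS and at 6.87 and 6.15 in MTX. Its difference was 1.27 ± 0.51 (2.40-fold, adjusted p = 0.259), and MS replicate 1 alone stood well above the rest.

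miR-125a-5p, of a family studied in myeloid cells, stood at 6.33 and 5.72 in MS and at 5.52 and 4.38 in MTX, a difference of 1.07 ± 0.43 (adjusted p = 0.259). miR-664 was the only one of the 4 that was lower in MS. It stood at the floor of 2.53 and at 3.90 in MS and at 3.97 and 5.09 in MTX, and its difference of -1.32 ± 0.50 (adjusted p = 0.259) rests on low levels. In PLA miR-664 was at 3.85 and 3.64, so only MTX replicate 2 lay above the rest.

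Of the 150 miRNAs detected on all 4 arrays (71.4%), 29 had an unadjusted p under 0.05, 27 higher in MS and 2 lower. The 10 higher ones with the smallest p had differences from 0.47 to 1.01, of which miR-210 alone was past 2-fold. miR-20a stood at 12.81 and 12.36 in MS and at 12.17 and 11.65 in MTX, a difference of 0.67 ± 0.23. miR-17-5p stood at 11.51 and 10.99 against 10.88 and 10.41, a difference of 0.61 ± 0.23. Both belong to the miR-17-92 cluster, known to promote lymphocyte proliferation and survival.

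miR-20b-5p, of the paralogous cluster on chromosome X, stood at 11.64 and 11.22 in MS and at 11.07 and 10.67 in MTX, a difference of 0.55 ± 0.20. miR-17-1-3p, the passenger arm of miR-17, stood at 5.09 and 4.49 against 4.20 and 4.08 (0.65 ± 0.25). miR-130b stood at 8.66 and 8.40 against 8.28 and 7.74, and its difference of 0.52 ± 0.18 had the smallest p of the 150. In all of these MS replicate 2 and MTX replicate 1 were the inner arrays.

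let-7i, a regulator of Toll-like receptor 4, stood at 13 and 12.61 in MS and at 12.57 and 12.09 in MTX, a difference of 0.47 ± 0.17. let-7e stood at 7.98 and 7.51 against 7.36 and 6.54 (0.80 ± 0.31), and miR-103 at 11.07 and 10.69 against 10.58 and 10.10 (0.54 ± 0.20). miR-374 stood at 4.32 and 3.89 against 3.36 and 3.57 (0.64 ± 0.23) and was the only one of the 10 in which MTX replicate 2 lay above MTX replicate 1. All 10 had an adjusted p of 0.259.

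**Figure D2:**
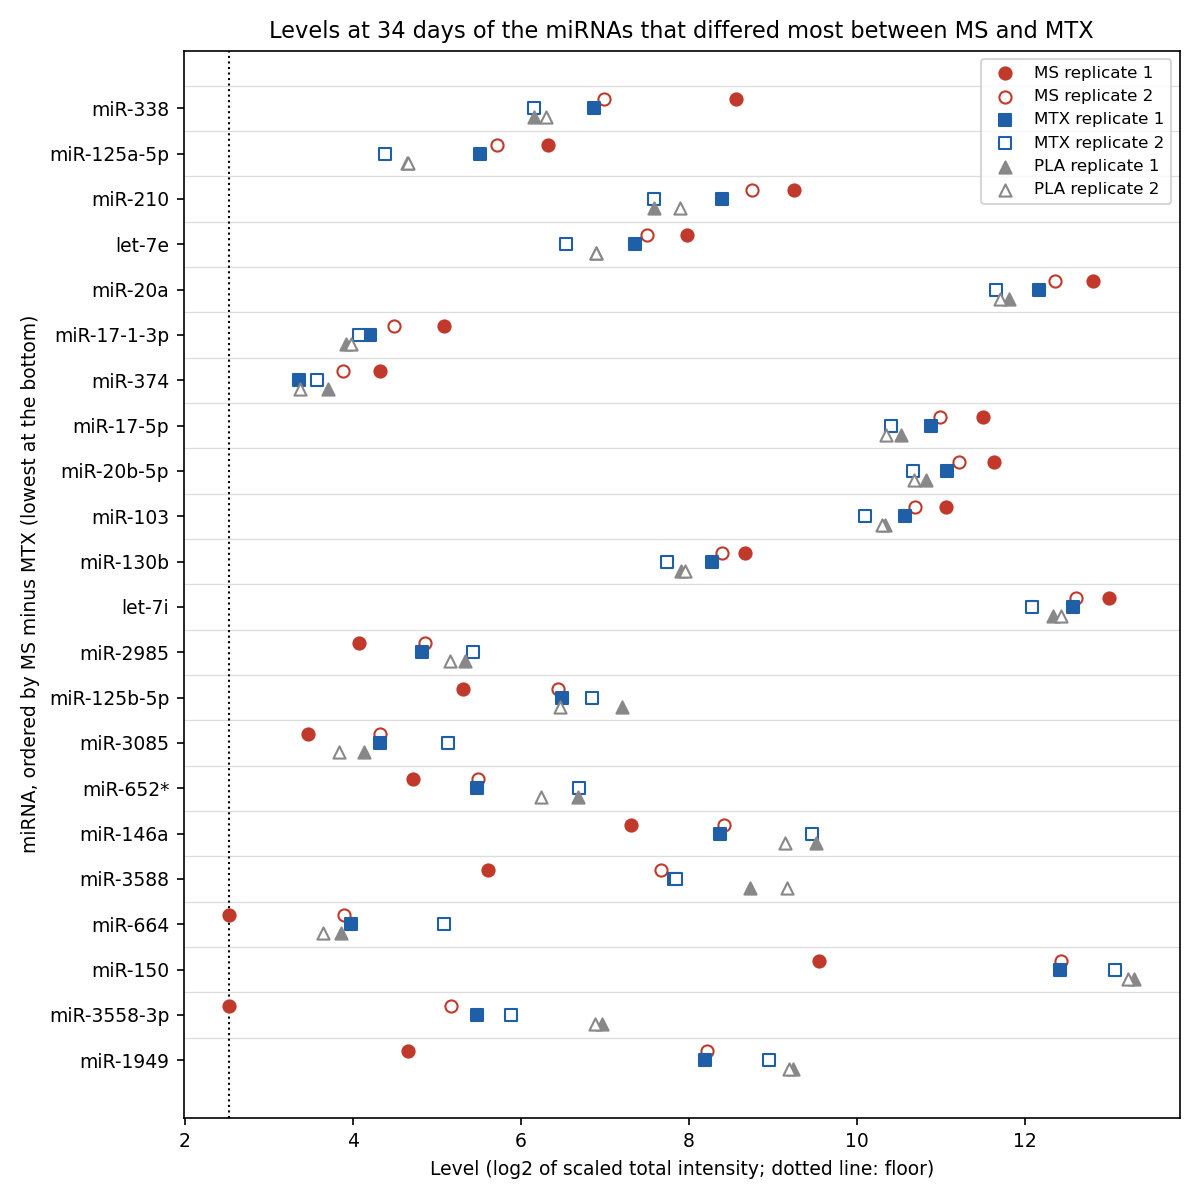
Level of each miRNA (log2 of scaled total intensity) on the 2 MS, 2 MTX and 2 PLA arrays at 34 days, for the 22 miRNAs named by p or by the 2-fold threshold, ordered by MS minus MTX. Among the MS and MTX points, MS replicate 1 lies at one end for each miRNA, and in most MS replicate 2 lies beside MTX replicate 1.

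The 10 lower ones had larger differences and wider errors. miR-1949 stood at 4.66 and 8.22 in MS and at 8.19 and 8.96 in MTX, a difference of -2.14 ± 1.03 (adjusted p = 0.292). miR-150, an abundant miRNA of mature lymphocytes, stood at 9.55 and 12.43 against 12.42 and 13.08, a difference of -1.76 ± 0.89 (adjusted p = 0.309). Of both, only MS replicate 1 was low, and MS replicate 2 lay just above MTX replicate 1, so the groups overlapped.

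miR-146a, a feedback inhibitor of NF-kB signalling, stood at 7.31 and 8.42 in MS and at 8.37 and 9.47 in MTX, a difference of -1.06 ± 0.53 (adjusted p = 0.308), with the groups overlapping again. miR-652* stood at 4.72 and 5.49 against 5.48 and 6.70 (-0.98 ± 0.45, adjusted p = 0.275) and was, with miR-664, one of the 2 lower miRNAs with an unadjusted p under 0.05. miR-3558-3p stood at the floor of 2.53 and at 5.17 in MS and at 5.47 and 5.89 in MTX (-1.83 ± 1.12, adjusted p = 0.36). miR-3085 (-0.83) and miR-2985 (-0.66) showed the same pattern at low levels.

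miR-125b-5p and miR-3588, which are read from opposite strands of the same bases, were both lower in MS. miR-125b-5p stood at 5.31 and 6.44 in MS and at 6.50 and 6.85 in MTX (-0.80 ± 0.48). miR-3588 stood at 5.61 and 7.67 against 7.82 and 7.85 (-1.19 ± 0.73), and both had an adjusted p of 0.36. PLA lay above the MS arrays for both, at 7.21 and 6.46 for miR-125b-5p and at 8.73 and 9.17 for miR-3588.

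Each of these 22 miRNAs was read by 2 to 4 probes. For 20 of the 22 every probe gave the direction of the total. The exceptions were miR-374 and miR-17-1-3p, for each of which 2 of 4 probes did. Of the miRNAs not detected on all 4 arrays, miR-211, named after its values were seen, was at 5.14 and 4.57 in MS and at 3.54 on MTX replicate 1. MTX replicate 2 did not detect it and counts at the floor, so its difference of 1.82 (adjusted p = 0.259) rests partly on the floor.

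Detection itself separated few miRNAs. miR-106b*, miR-203, miR-423 and miR-542-5p were detected on both MS arrays and neither MTX array, and none was detected on both MTX arrays and neither MS array. All 4 were near the floor. miR-542-5p stood at 3.44 and 2.63 in MS and at the floor on both MTX arrays, and with MTX at the floor MS was 1.42-fold higher (adjusted p = 0.259). miR-203 stood at 2.68 and 3.12 in MS, 1.30-fold higher by the same floor (adjusted p = 0.575), with an interval of the log2 difference from -0.49 to 1.24. These folds are not bounds. Undetected PLA values lay above the floor, at 2.77 and 2.68 for miR-203 and at 2.76 and 2.66 for miR-542-5p. miR-423 (2.97 and the floor in MS) and miR-106b* (at the floor on both MS arrays) give no fold. None of the 4 was detected in PLA.

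The miRNAs that kept their level were sought with the 95% confidence interval of the difference, since a p that misses the threshold does not show an equal level. An interval wholly within 2-fold in either direction was found for 84 of the 210 (40%). This count leans on the scaling and the signal, being 25 without scaling, 52 with the percentile over all miRNAs, 133 in the authors' log2 table and 186 with normexp, and was 51 without MTX replicate 1 and 53 without MS replicate 2. Of the 84, 66 were detected on all 4 arrays, and 9 stood at the floor on all 4 and so carry no measured level. The 66 are 44% of the 150 measured on all 4 arrays, and their differences ran from -0.32 to 0.55. For 65 others of the 150 the interval reached past 2-fold with p over 0.05, so neither a difference nor its absence was shown. Being held and differing are not exclusive, as 10 of the 66 had an unadjusted p under 0.05.

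**Figure D3:**
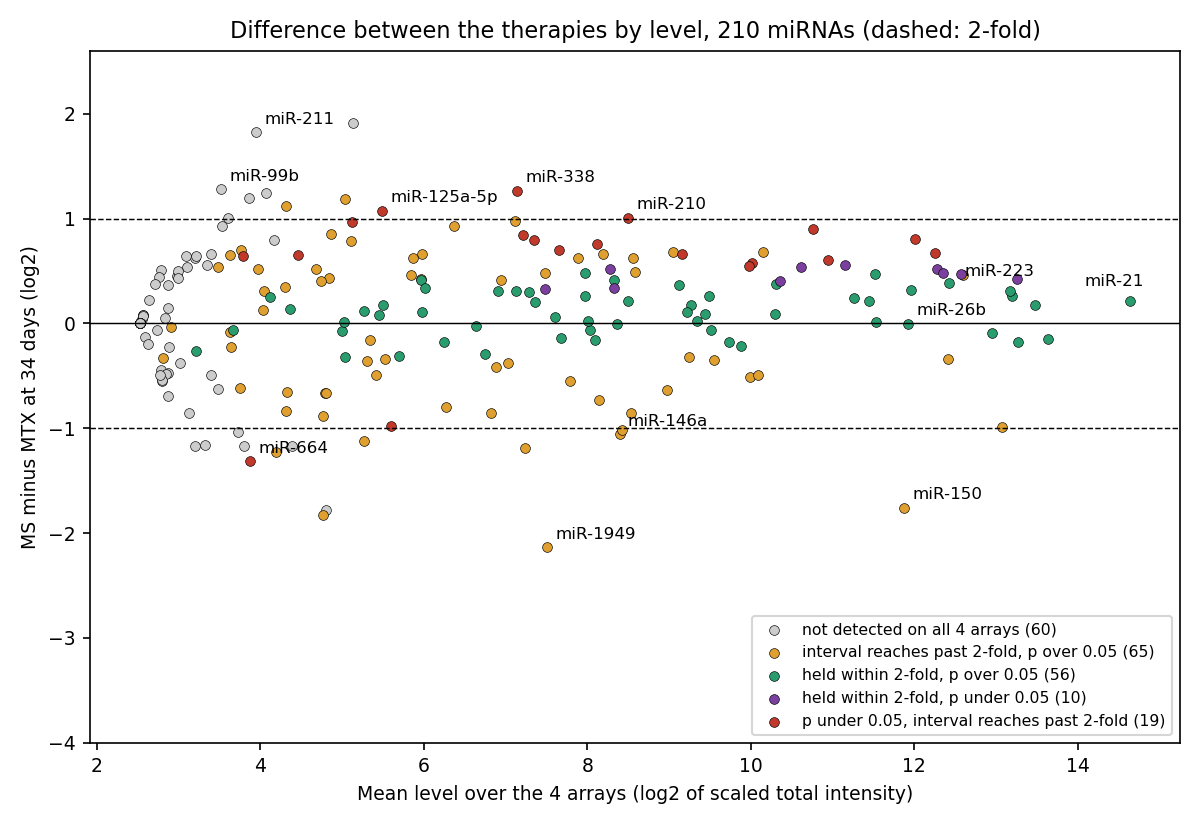
Difference between MS and MTX (log2, y axis) against mean level over the 4 arrays (log2 of scaled total intensity, x axis) for the 210 miRNAs tested, coloured by p and by whether the 95% interval lies within 2-fold. The 66 held miRNAs measured on all 4 arrays lie between -0.32 and 0.55, and the widest differences of miRNAs measured on all 4 arrays lie below 0 (miR-1949 at -2.14, miR-3558-3p at -1.83, miR-150 at -1.76).

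The brightest miRNAs were among those held. miR-21, abundant in activated leukocytes, stood at 14.66 and 14.84 in MS and at 14.66 and 14.40 in MTX, a difference of 0.22 with an interval from -0.38 to 0.81, but differed by 1.16 in the authors' log2 table. miR-142-3p, found throughout the blood lineages, stood at 13.74 and 13.39 against 13.54 and 13.88, a difference of -0.15 (-0.56 to 0.27). miR-223, the granulocyte and monocyte miRNA, stood at 13.57 and 13.08 against 13.32 and 12.71, a difference of 0.31 (-0.22 to 0.85). The arms met at 14.66 for miR-21 and overlapped for miR-142-3p and miR-223.

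let-7f (0.18), let-7a (0.26), miR-16 (-0.18), miR-15b (-0.09) and miR-19b (0.39) were held with intervals that include 0. miR-26a (0.42, 0.05 to 0.79) and let-7i (0.47, 0.12 to 0.83) were held within 2-fold while their intervals lay above 0. With the 132 always-detected miRNAs split by level into 3 sets of 44, 30 of the brightest, 19 of the middle and 14 of the dimmest were held.

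Of the measured miRNAs held, those nearest to 0 were miR-26b, miR-27b and miR-3593-3p, which were chosen after their values were seen because the miRNAs nearest to 0 by the naming rule (miR-106b*, miR-29a*, miR-33*, miR-3544 and miR-425*) all stood at the floor. miR-26b was at 12.01 and 11.83 in MS and at 11.90 and 11.96 in MTX, a difference of -0.00 with an interval from -0.29 to 0.29. miR-27b was at 8.48 and 8.24 against 8.39 and 8.35, an interval from -0.41 to 0.40. miR-3593-3p was at 5.04 and 5.02 against 4.62 and 5.41, with a wider interval from -0.60 to 0.62. In all, 18 of the 150 differed by less than 0.1 and 14 by more than 1, 5 of them higher and 9 lower in MS.

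Members of one genomic cluster went one way in 10 clusters of 20. Of the 20 clusters with 3 or more tested miRNAs (placed by name, neighbours under 10 kb apart), 6 had every member higher in MS and 4 every member lower. In the miR-17-92 cluster on chromosome 15 all 9 tested mature forms were higher, from 0.39 (miR-19b) to 0.68 (miR-19a), and all 9 stayed positive under each other scaling and signal tried. miR-19b-1* was detected on only 1 MTX array. miR-17-5p, miR-19b and miR-92a are also encoded in the cluster on chromosome X, so their signal cannot be assigned to chromosome 15 alone. Of the 9, 5 had an unadjusted p under 0.05, beside 16.2% of all tested in that direction. In the related miR-106b-25 cluster inside Mcm7 the differences were 0.09 for miR-106b, 0.17 for miR-93 and -0.21 for miR-25. miR-106b and miR-93, with the seed of miR-17-5p and miR-20a, were held within 2-fold, with intervals from -0.36 to 0.55 and from -0.24 to 0.58. Whether the 2 clusters differ from each other was not tested.

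In the related regions of chromosomes 1 and 11, miR-99 and the 5p arms of miR-125 had opposite signs, while let-7 did not. On chromosome 1, miR-99b (4.74 and 3.58 in MS, 3.23 and the floor in MTX) was higher by 1.28 ± 0.53, let-7e by 0.80 and miR-125a-5p by 1.07. On chromosome 11, miR-99a stood at 3.34 and 6.07 in MS and at 5.18 and 6.48 in MTX, a difference of -1.12 ± 0.85, and miR-125b-5p differed by -0.80. let-7c, at 11.67 and 11.44 against 11.43 and 11.25, differed by 0.21 ± 0.13 and was held. miR-125a-3p, on chromosome 1, differed by -0.16, the reverse sign of its 5p arm, and miR-125b-3p by 0.70, both with intervals that include 0. miR-125b-3p was placed by name alone, and the array also reads a miR-125b*, so its locus is not settled here. Whether the miR-125b-5p signal comes from chromosome 11 alone is not settled either. miR-125a-5p and miR-125b-5p thus share a seed and had opposite signs, with intervals from 0.14 to 2.01 and from -1.82 to 0.22.

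In the cluster of miR-450a, miR-542, miR-503 and miR-322 on chromosome X all 6 forms were higher, from 0.45 to 1.01, 4 of them not detected on every array. In the miR-144 and miR-451 cluster on chromosome 10, the erythroid miRNAs, all 3 forms were lower, from -0.99 to -0.85, with intervals that reach past 0. miR-451 stood at 12.11 and 13.04 in MS and at 12.54 and 14.59 in MTX, so MTX replicate 2 alone was high. miR-15b and miR-16 on chromosome 2, and miR-30c and miR-30e on chromosome 5, were lower in every form, from -0.33 to -0.06, but without scaling all 3 forms of the first and 3 of 4 of the second were higher. Of the 3 forms of miR-15b and miR-16, 1 was also higher with normexp and 2 in the authors' log2 table.

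**Figure D4:**
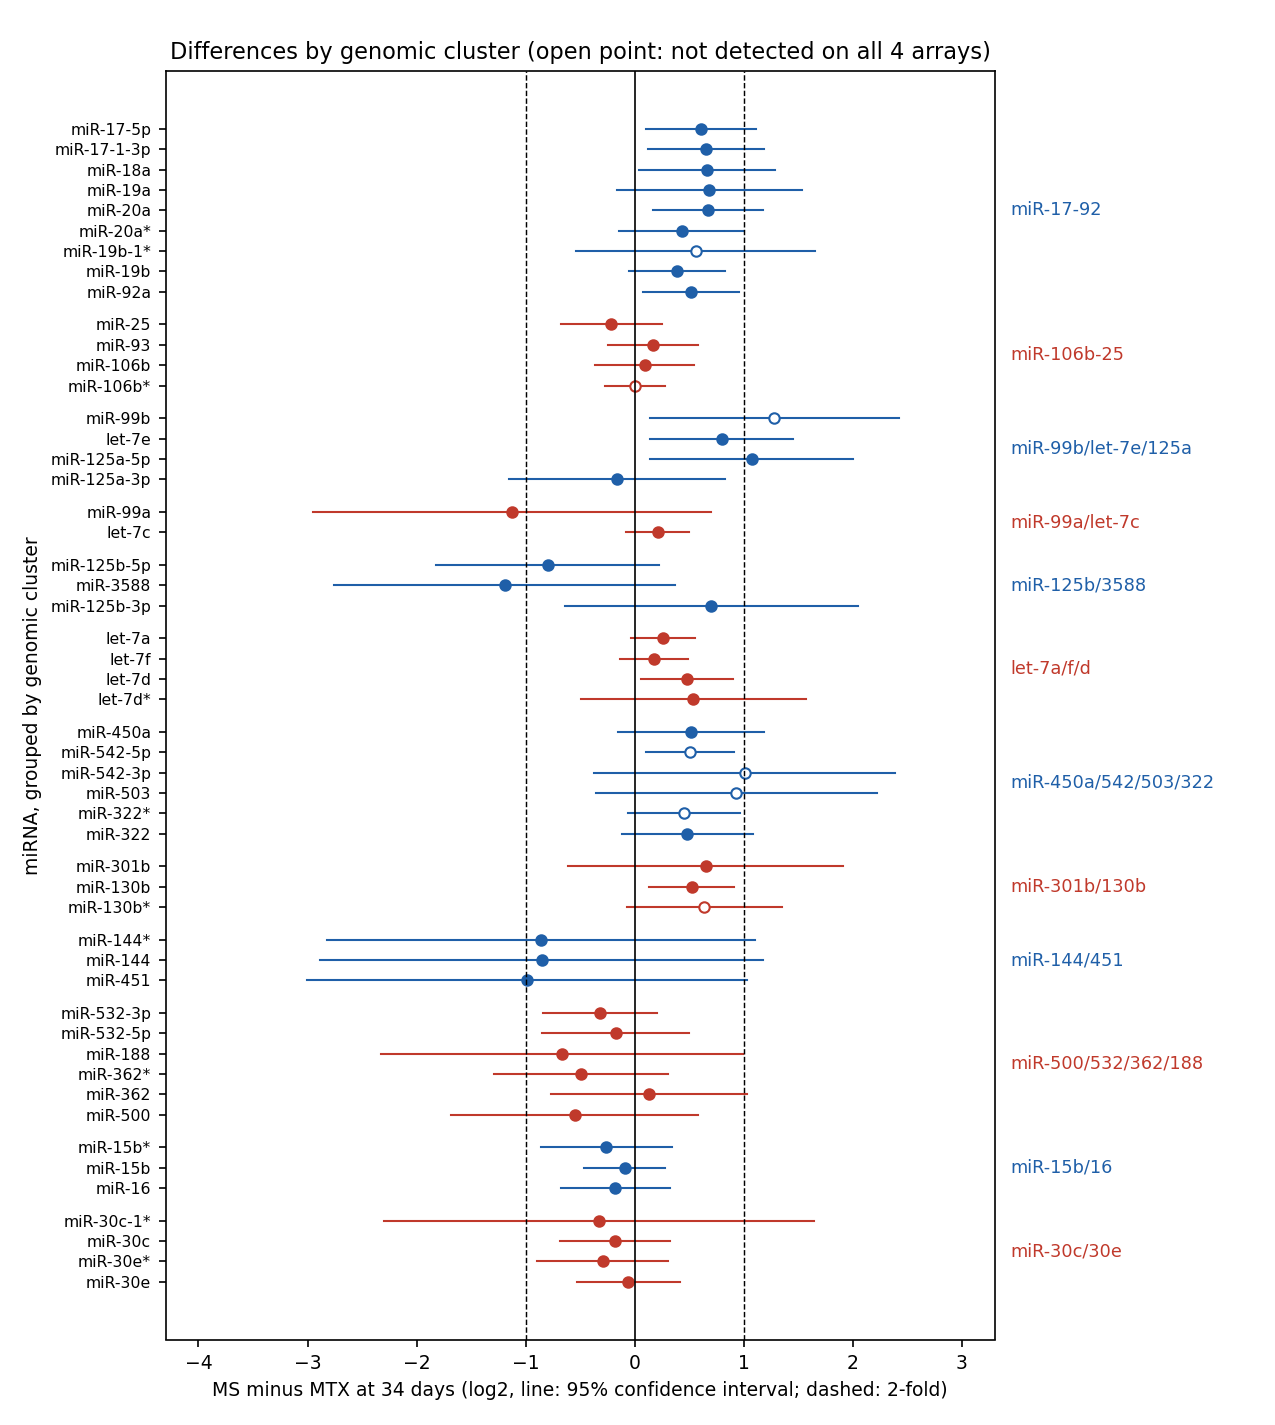
MS minus MTX (log2, x axis) with its 95% confidence interval for the miRNAs of 12 genomic clusters, placed by name. Open points were not detected on all 4 arrays, and dashed lines mark 2-fold. The 9 forms of miR-17-92 lie between 0.39 and 0.68, and the 3 forms of miR-144 and miR-451 lie between -0.99 and -0.85.

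Lists of miRNAs by function or cell type were set beside all miRNAs tested, of which 58.1% were higher in MS with a median of 0.12. No member of any list was called. All 8 let-7 guide strands were higher in MS, with a median of 0.31, and 7 of the 8 were held within 2-fold, though 6 of the 8 were higher with quantile normalisation or with normexp. Of the 9 members of the miR-17-92 and miR-106b-25 clusters listed as guides, 8 were higher, with a median of 0.52, and 7 to 9 were higher under the other scalings and signals. Of the 5 measured members of the miR-15 seed family 3 were higher (median 0.30), and of 42 star strands 18 were higher (median 0.00).

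Of 8 measured inflammation miRNAs 4 were higher, with a median of 0.01, whose sign varied with the scaling, and a range from -1.76 (miR-150) to 0.42. Of 10 mechanosensitive miRNAs 8 were higher, with a median of 0.34, and 6 were held. Of 9 miRNAs linked to wound healing and epithelial-mesenchymal transition 5 were higher, with a median of 0.02, from -1.12 (miR-99a) to 1.01 (miR-210), and the sign of the median turned under 6 of 7 other scalings and signals. Of the epithelial guards of that transition, miR-200a, miR-200b, miR-200c, miR-429 and miR-205 were detected on none of the 4 arrays. miR-141 and miR-203, of the same list, were higher in MS at low levels. miR-141 stood at 3.80 and 3.21 in MS and at 3.25 and the floor in MTX, a difference of 0.62. The difference of miR-203 was 0.37. Of 4 miRNAs linked to folate or methotrexate 3 were higher, with a median of 0.26.

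The summed levels of lymphocyte, myeloid and erythroid markers overlapped between MS and MTX. In each, MS replicate 1 lay at one end of the 4 arrays and MTX replicate 2 at the other. The summed level (log2) of the 5 lymphocyte miRNAs was 11.16 and 12.95 in MS, 12.94 and 13.53 in MTX and 13.74 and 13.68 in PLA, and 0 of the 5 were higher in MS (median -0.50), or 3 of the 5 without scaling. The 5 myeloid miRNAs, led by miR-223, summed to 14.71 and 14.18 in MS, 14.31 and 13.84 in MTX and 13.90 and 13.95 in PLA, and all 5 were higher in MS (median 0.46). The erythroid sum was 12.19 and 13.09 in MS, 12.60 and 14.65 in MTX and 14.20 and 14.11 in PLA, with both measured members lower and miR-96 detected on no array of the 4. These lists include miR-150, miR-146a, miR-338 and miR-125a-5p named above. The lymphocyte list holds only miR-181a (-0.35) and miR-181b (-0.03) of the miR-181 family. miR-181c (0.63) and miR-181d (0.76), not on the list, were higher in MS, so its count depends on the members listed. In a mixture of cells, fewer cells of a type and less RNA per cell cannot be told apart, and the part of cell makeup in the differences was not tested.

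Other marker lists were smaller. The 3 pan-leukocyte miRNAs summed to between 15.23 and 15.32 on the 4 arrays, with 1 of the 3 higher in MS (median -0.15). The 3 measured platelet and endothelial miRNAs summed to 7.30 to 7.87, with 2 higher in MS (median 0.08). Of the smooth muscle and fibroblast list, miR-143 and miR-145 were measured, both higher in MS (median 0.38), and miR-214 was detected on none of the 4 arrays. The hepatocyte marker miR-122 was at the floor on 3 of the 4 arrays. The leukocyte markers miR-142-3p and miR-223 were among the brightest on every array.

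The mean of the placebo arm lay on the MTX side. This rests on one array of each arm, since MS replicate 2 lay 0.38 and 0.41 from the PLA arrays and MTX replicate 1 lay 0.40 and 0.39 from them, against 0.85 and 0.91 for MS replicate 1 and 0.18 and 0.23 for MTX replicate 2. The PLA mean was nearer to the MTX mean than to the MS mean for 115 of the 132 always-detected miRNAs (87.1%), and for 28 of the 29 miRNAs measured on all 4 arrays with an unadjusted p under 0.05 between MS and MTX. MS against PLA gave 0 calls (0%) and 84 miRNAs at an unadjusted p under 0.05 (40%), and MTX against PLA gave 0 calls and 5 (2.38%). These comparisons share the PLA arrays, and whether they differ was not tested apart from MS against MTX. Leaving out MS replicate 2 gave 91 calls against PLA, which set MS replicate 1 alone against PLA with the spread of the other groups, and leaving out MS replicate 1 gave 0 with 4 at an unadjusted p under 0.05.

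The arms were compared again at 1 hour, on arrays of other rats. There 3 miRNAs were called (1.43%), all lower in MS, and 30 had an unadjusted p under 0.05 (14.3%), 1 higher (0.476%) and 29 lower (13.8%). The median difference over all tested was -0.09 at 1 hour, but above 0 under 6 of 7 other scalings and signals, up to 0.60 without scaling. All 3 calls were lost without scaling, with the percentile over all miRNAs, quantile normalisation, the mean spot signal, normexp, the authors' table or a floor of 1. let-7b* stood at 3.27 and the floor in MS and at 4.24 and 5.02 in MTX, a difference of -1.73 ± 0.28 (adjusted p = 0.00297). miR-3544 stood at 3.20 and 3.74 against 4.75 and 4.96, a difference of -1.39 ± 0.23 (adjusted p = 0.00297), and miR-298 at 3.27 and 2.81 against 4.62 and 4.90, a difference of -1.72 ± 0.35 (adjusted p = 0.015). The groups did not overlap for any of the 3, and all were dim.

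At 34 days the same 3 miRNAs differed by -0.13 (let-7b*), 0.00 (miR-3544) and 0.00 (miR-298), at or near the floor in both arms. The change of the difference from 1 hour to 34 days was 1.60 for let-7b* and 1.39 for miR-3544 (both adjusted p = 0.119) and 1.72 for miR-298 (adjusted p = 0.226). On the 1 hour slide, healthy rats (4.47 and 4.38) and PLA (4.70 and 3.95) stood near MTX for let-7b*. For miR-3544 they stood at 4.77 and 4.77 and at 4.86 and 4.78. The anaesthesia control at 1 hour, on the slide of the 34 day arms, was at the floor for all 3 miRNAs. Time and slide therefore cannot be told apart for this change. No miRNA was called for this change (0 of 210), and 14 had an unadjusted p under 0.05 (6.67%). The 1 hour calls also rested on single arrays, with 0 calls without MTX replicate 2 and 39 without MS replicate 2.

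The miRNAs that differed most at 34 days mostly had the same sign at 1 hour. All 10 of the lower ones were lower, from -1.70 (miR-1949) to -0.34 (miR-652*), and 7 of the 10 higher ones were higher, up to 0.58 (miR-210). miR-338 differed by 1.06 at 1 hour and miR-125a-5p by 0.57. Of the let-7 guide strands, all higher in MS at 34 days, only let-7e was higher at 1 hour (0.10). The others were lower there, from -0.32 (let-7f) to -0.04 (let-7d), beside a median of -0.09 over all tested. Across the 132 always-detected miRNAs, which are not independent replicates, the differences at the 2 times had r = 0.82 (Pearson) and 0.85 (Spearman), with the same sign for 94.

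This likeness was carried by the MS arrays numbered 1. With MS replicate 1 alone against the MTX mean of its time, r was 0.89 and 96 of 132 signs were shared. With MS replicate 2 alone, r was -0.03 and 55 of 132 signs were shared. The median absolute difference from MTX was 0.68 at 34 days and 0.58 at 1 hour for MS replicate 1, and 0.21 and 0.13 for MS replicate 2. The 2 MS arrays numbered 1 come from different rats and had the 2 highest summed intensities of the series, 519917 and 371061. At both times the MS arrays also lay on the other side of the slide from the MTX arrays.

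**Figure D5:**
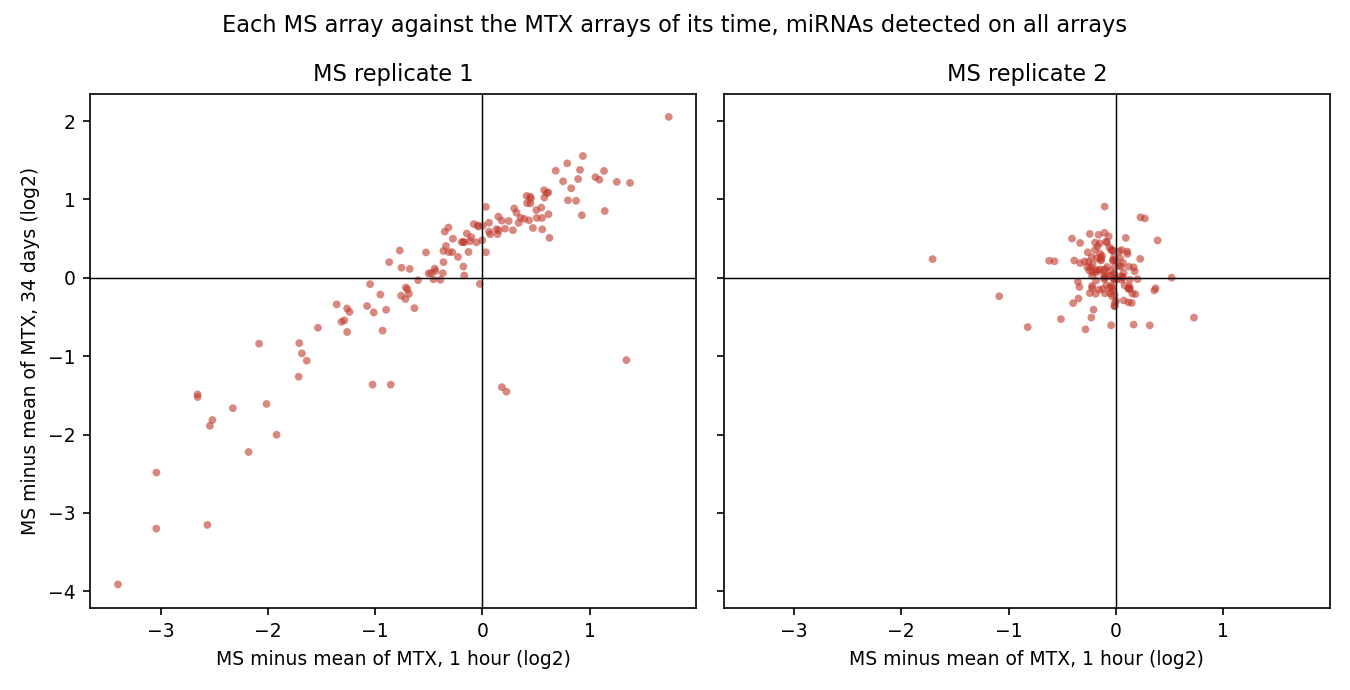
Difference from the MTX mean of the same time at 34 days (log2, y axis) against that at 1 hour (log2, x axis) for each of 132 miRNAs, for MS replicate 1 (left) and MS replicate 2 (right). The points of replicate 1 lie along a line (r = 0.89) and those of replicate 2 around 0 (r = -0.03).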

How the data were processed

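Per the labels, PBMC were isolated on a density gradient and total RNA was labelled with Cy3. Per the file headers, Agilent Feature Extraction 10.7.3.1 read the images, and the deposited intensity values are background-corrected and not normalised between arrays. The authors also deposited a log2 table, used as an alternative. The submitters' processing notes name Feature Extraction 10.7 and RMA, and the study's methods name the AgiMicroRna package, without saying which steps made this table.

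Total intensity per miRNA was scaled to the 75th percentile over the 132 miRNAs detected on all 24 arrays, floored at 5.76 and log2-transformed. Of 677 miRNAs, 210 with detection on 3 or more arrays entered a limma 3.58.1 fit (R 4.3.3) of 12 group means to all 24 arrays, leaving 12 residual degrees of freedom. All tests are two-sided, with Benjamini-Hochberg adjustment, and a call is an adjusted p under 0.05. The fit was tested on simulated data with noise independent between miRNAs and arrays. Shifts shared by most miRNAs of an array, as seen here, were not simulated, so that test does not cover them. Named miRNAs are those past the study's threshold, the 10 higher and 10 lower with the smallest p among those detected on all 4 arrays, those detected in one arm only, and, of those held, the 10 brightest and the 5 nearest to 0. Exceptions are stated.

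The members, lists and rules were chosen with earlier results of these data known. Groups came from the labels. Replicate numbers did not pair samples. Deviations of replicates correlated at 0.68 between MS and MTX, but from -0.77 to 0.84 over 66 pairs of groups, 26 of which were over 0.1. Each slide holds 8 arrays, and both arms of each comparison lay on 1 slide. Alternatives were other scalings, signals, filters, floors, samples and thresholds.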

Additional observations from a re-analysis of the deposited data

Results flagged for a closer look

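Outside the tests, 35 miRNAs were detected on only 1 or 2 of the 24 arrays. MS replicate 1 at 34 days held 11 of them, while MS replicate 2, both MTX arrays and both PLA arrays at 34 days held 0. This was flagged because it is signal in data that no test used and that the placebo arrays did not show. Of the 11, 8 (miR-126*, miR-132, miR-148b-5p, miR-151*, miR-199a-3p, miR-208*, miR-31 and miR-330*) were also detected on MS replicate 1 at 1 hour and on no other array, and 2 (miR-30c-2* and miR-335) on MS replicate 1 at 34 days alone. Their levels there ran from the floor of 2.53 to 3.94 (log2). These 2 arrays had the highest summed intensities of the series, 519917 and 371061, and the part of intensity in the detection was not tested.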

How the results depend on the processing

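The comparison at 34 days had 0 calls under each scaling, signal, filter, floor and sample alternative, except that the study's criterion passed 4 (3 higher in MS) and leaving out 1 array gave 0 to 9. At an unadjusted p under 0.05 the main count of 37 (91.9% of them higher in MS) became 51 without scaling (98%), 13 with the 75th percentile over all miRNAs (76.9%), 12 with quantile normalisation (58.3%) and 38 with the mean spot signal (63.2%), beside median differences over all tested of 0.12, 0.72, 0.08, 0.03 and 0.03. The count held within 2-fold was 84. It was 31 within 1.5-fold, 25 without scaling, 52 with the percentile over all miRNAs, 186 with normexp, 133 in the authors' log2 table, 548 of 677 with no filter and 51 to 93 without 1 array, 51 without MTX replicate 1 and 53 without MS replicate 2. The 3 calls at 1 hour became 0 without scaling, with the percentile over all miRNAs, quantile normalisation, mean spot signal, normexp, the authors' table, a floor of 1, only the arrays compared or only the slide's arrays, 1 with array weights, 10 by the study's criterion and 0 to 39 without 1 array. The change between the times gave 0 calls, and 0 to 2 without 1 array. Its estimate for miR-298 turned from 1.72 to -0.40 with the mean spot signal. MS against PLA gave 0 to 91 without 1 array, and MTX against PLA gave 0. Without scaling the replicates of MS differed by 1.01 and those of MTX by 0.87. With replicate number as a block, chosen here for the PLA comparisons after seeing the data, calls were 0 at 34 days (40 at an unadjusted p under 0.05), 3 at 1 hour, 0 for the change and 0 against PLA, and 85 were held. The causes were not tested. Of the values of single miRNAs, 679 kept direction and side of the threshold, 34 became weaker, 5 stronger, 20 moved and 1 reversed. The precision is limited by 2 arrays a group and, for dim miRNAs, by the floor.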
